A study of Homo sapiens with 9 samples.

Results

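MYCNOS, DDX1, NBAS and AC010745.2 are 4 genes that lie on chromosome 2 within 1 Mb of MYCN, the gene whose many extra copies mark a high-risk class of neuroblastoma. They were chosen by gene symbol and position, with MYCN itself left out, and are 4 of the 25084 genes in the deposited expression table. RNA was sequenced from LAN5, an established human neuroblastoma cell line that carries amplified MYCN, 72 h after nucleofection (a form of electroporation) with 1 of 3 small interfering RNAs, short RNAs that direct the breakdown of a matching transcript. The groups, of 3 libraries each, were given siRNA directed at MYCN (siMYCN, labelled siMYCN_2), siRNA directed at HAND2 (siHAND2, labelled siHAND2_3) or control siRNA (siCTR), and all were kept in the same serum-containing medium. Each target was thus lowered with a single siRNA label in 1 cell line, and the labels do not say whether the replicates came from separate cultures, so p-values measure the spread between these libraries, which may be technical. Levels are in CPM, read counts scaled to the same total in each library, and the libraries held between 21074066 and 32713168 reads assigned to genes, as worked out from the smallest step between values. In such bulk RNA, fewer cells with a transcript and less of it per cell cannot be told apart.

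Gene amplification in neuroblastoma copies a stretch of chromosome 2p24 and not MYCN alone, so neighbouring genes are often carried along. DDX1, which encodes a DEAD-box RNA helicase of the tRNA ligase complex, and NBAS, named for its place in such amplicons, are the classic passengers. MYCNOS is transcribed from the strand opposite to MYCN, overlaps its start, and has been described as the source of both a noncoding RNA and a small protein, NCYM. AC010745.2 carries only a clone-based name and has no role given here. Copy number was not analysed here, so calling these genes neighbours of an amplified locus rests on their position and on what is known of the cell line.

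The genes flank MYCN on both sides. MYCN itself spans 15940550 to 15947007 on chromosome 2 (GRCh38, plus strand). NBAS (15166914 to 15561334, minus strand) ends 379 kb below it and DDX1 (15591178 to 15631111, plus strand) 309 kb below it. MYCNOS (15918350 to 15942249, minus strand) overlaps MYCN over 1700 bases of genomic span. AC010745.2 (16224047 to 16333978, plus strand) starts 277 kb above MYCN. Besides MYCN, 14 genes of the deposited data lie within 1 Mb, and these 4 are the ones with 1 CPM or more in 3 or more of the 9 libraries, the filter used for testing.

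MYCN and HAND2 encode helix-loop-helix transcription factors, and proteins of that class bind the E-box, CANNTG. The promoter windows below are shown because both factors were lowered here; each runs from 250 bases before to 50 bases after a RefSeq gene start (GRCh38.p14, 5′ to 3′ on the strand of the gene), with every CANNTG in capitals. RefSeq held windows for 3 of the 4 genes. The DDX1 window (chr2:15591618-15591917, plus strand) holds 2 such sites, CATCTG and CACATG. MYCNOS has 2 windows (chr2:15941636-15941935 and chr2:15942384-15942683, minus strand) with 1 site each, CAGATG and CACATG. The NBAS window (chr2:15561285-15561584, minus strand) holds none.
DDX1: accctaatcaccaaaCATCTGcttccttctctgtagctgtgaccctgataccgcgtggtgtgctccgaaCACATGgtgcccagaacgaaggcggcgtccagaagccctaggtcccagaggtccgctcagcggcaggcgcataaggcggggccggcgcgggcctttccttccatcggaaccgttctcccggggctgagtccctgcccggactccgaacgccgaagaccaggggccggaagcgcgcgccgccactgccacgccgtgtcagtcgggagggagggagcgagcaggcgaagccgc
MYCNOS first window: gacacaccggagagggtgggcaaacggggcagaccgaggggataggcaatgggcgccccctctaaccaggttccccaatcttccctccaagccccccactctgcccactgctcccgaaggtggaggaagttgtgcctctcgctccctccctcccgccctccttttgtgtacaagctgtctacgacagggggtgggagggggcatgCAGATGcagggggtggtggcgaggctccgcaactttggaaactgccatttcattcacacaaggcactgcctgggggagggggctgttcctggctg
MYCNOS second window: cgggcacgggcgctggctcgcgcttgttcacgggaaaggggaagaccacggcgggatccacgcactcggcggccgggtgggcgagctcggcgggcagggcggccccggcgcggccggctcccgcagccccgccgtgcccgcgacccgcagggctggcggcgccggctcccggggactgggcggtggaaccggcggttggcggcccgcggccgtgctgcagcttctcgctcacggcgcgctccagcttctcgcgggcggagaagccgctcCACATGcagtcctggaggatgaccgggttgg
NBAS: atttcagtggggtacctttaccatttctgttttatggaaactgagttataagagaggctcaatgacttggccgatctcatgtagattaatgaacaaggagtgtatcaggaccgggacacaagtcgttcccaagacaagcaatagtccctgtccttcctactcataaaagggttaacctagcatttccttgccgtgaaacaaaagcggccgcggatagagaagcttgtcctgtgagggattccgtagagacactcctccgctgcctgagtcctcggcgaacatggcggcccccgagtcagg

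None of the 4 windows contains CACGTG, the form of the E-box that MYC family proteins are best known to bind. Among all 35116 RefSeq windows of 300 bases, 7.26% hold CACGTG and 68.7% hold CANNTG. Both motifs read the same on either strand, and CACGTG is one case of CANNTG. A match is a string of letters and not a shown binding site. Both MYCNOS windows lie inside the MYCN gene, and all 300 bases of the second one are found, on the other strand, in an annotated MYCN transcript.

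The targeted transcripts were checked first. MYCN fell to 70.0% of its siCTR mean in siMYCN and to 49.6% in siHAND2, with no overlap between groups. The level of HAND2 was 272 ± 7.65 CPM in siHAND2, against 501 ± 13.7 in siCTR and 571 ± 15.9 in siMYCN (SD, n = 3 libraries each). The 10 noradrenergic neuroblastoma markers all passed the filter. Their summed level was 1739 to 1855 CPM in siCTR and 1730.3 to 1861 CPM in siHAND2, while the siMYCN libraries stood above both at 2151 to 2296 CPM. The 4 Schwann cell and 4 endothelial markers did not pass the filter, at summed levels of at most 2.68 and 1.19 CPM, and 2 immune markers summed to at most 1.39 CPM. A list of 4 fibroblast markers, 3 of which passed, summed to 119 to 128 CPM in siCTR. The sum was 147 to 154 CPM in siMYCN and 323 to 375 CPM in siHAND2. Most of that was PDGFRA (116 to 125 CPM in siCTR and 309 to 359 in siHAND2), while the matrix gene DCN was at 0.374 to 0.522 CPM in siCTR, 1.11 to 1.61 CPM in siMYCN and 10.2 to 11.7 CPM in siHAND2. The collagen gene COL3A1 was higher in both knockdowns without overlap, at 1.14 to 1.62 CPM in siCTR, against 3.95 to 4.45 (siMYCN) and 3.54 to 4.08 (siHAND2). The other collagen gene, COL1A1, was under the filter (0.279 to 0.936 CPM). The part of these shifts in the results below was not tested.

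Differences were tested on log2(CPM + 1) with limma in 1 fit to all 9 libraries, with Benjamini-Hochberg adjustment over the 14495 genes that passed the filter. Changes were common: 35.9% of tested genes passed an adjusted p of 0.05 in siMYCN against siCTR (24.5% higher, 11.4% lower), 29.9% in siHAND2 against siCTR (18.1% higher, 11.8% lower) and 26.9% in siHAND2 against siMYCN (11.4% higher, 15.5% lower). The split by direction depended on scaling. On the deposited scale, higher calls made up 68.3% in siMYCN and 60.6% in siHAND2. Rescaling by median ratios made these shares 51.7% and 48.3%, and quantile normalization made them 49.3% and 47.8%. For siHAND2 against siMYCN the share was 42.4%, 50.4% and 51.9%. Each comparison called 3 of the 4 neighbours, with calls in both directions. In siMYCN MYCNOS and AC010745.2 rose and NBAS fell. In siHAND2 DDX1 was higher and MYCNOS and AC010745.2 lower, both against siCTR and against siMYCN. The siCTR libraries serve both comparisons, so those are not independent, and each gene is also compared between the knockdowns directly. With 4 genes these counts are a description, and AC010745.2 passed the filter through its siMYCN libraries alone.

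**Figure D1:**
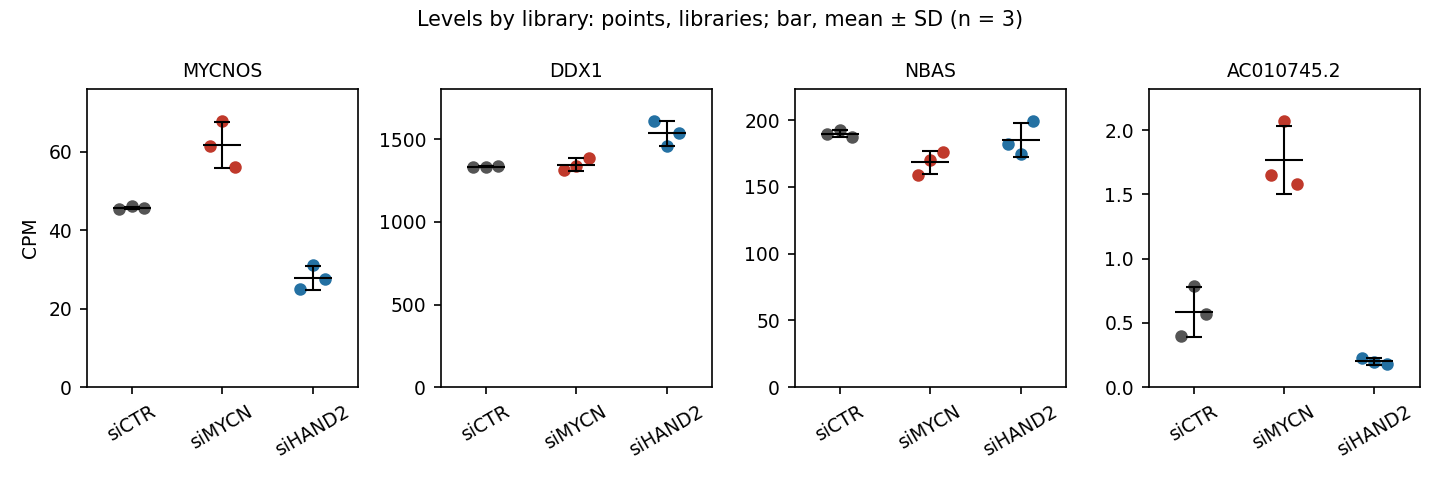
CPM (vertical axis, from 0) of the 4 genes in the 9 libraries, with points for libraries and bars for the mean ± SD of 3. MYCNOS and AC010745.2 are highest in siMYCN and lowest in siHAND2 with no overlap, DDX1 is highest in siHAND2, and NBAS is lower in siMYCN than in siCTR.

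MYCNOS, the antisense neighbour, moved opposite to MYCN in one knockdown and with it in the other. The siCTR libraries gave 45.5, 46.0 and 45.6 CPM, the siMYCN libraries 61.3, 67.8 and 56.0, and the siHAND2 libraries 25.1, 31.1 and 27.6. The 3 groups did not overlap, with siMYCN on top and siHAND2 at the bottom, and the siCTR libraries were the most alike (coefficient of variation 0.655%, against 9.60% and 10.9%). Relative to siCTR, log2(CPM + 1) differed by 0.42 in siMYCN (standard error 0.07, limma adjusted p = 0.000335) and by -0.70 in siHAND2 (adjusted p = 2.11e-06). Between siHAND2 and siMYCN the difference was -1.12 (standard error 0.07, adjusted p = 5.84e-09), so that the siHAND2 mean was 0.452 times the siMYCN mean on the CPM scale. These 3 calls held in all 18 alternative analyses.

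Because both genes were read in the same libraries, the level of MYCNOS can be given as a share of MYCN, which needs no scaling between libraries. The siCTR libraries gave 2.46%, 2.43% and 2.55%, the siMYCN libraries 4.58%, 5.45% and 4.36%, and the siHAND2 libraries 2.79%, 3.21% and 3.14%. All siMYCN libraries lay above all others, and all siHAND2 libraries lay above all siCTR libraries. The log2 ratio was higher by 0.94 in siMYCN (1.92-fold) and by 0.29 in siHAND2 (1.23-fold) than in siCTR. MYCN, the divisor, fell in both knockdowns, so part of each rise is that of the divisor falling. In siHAND2 MYCNOS itself fell, to 61.1% of its siCTR mean, while MYCN fell to 49.6%. An exact two-sided permutation test gave p = 0.1 for each of the 3 pairs of groups (0.1 after Benjamini-Hochberg adjustment over the 3), the smallest value that 3 against 3 libraries allow. These shares compare CPM values and are not corrected for transcript length.

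Whether reads were assigned by strand is not stated, and without it reads from MYCN and MYCNOS cannot be told apart where the genes overlap. In the GENCODE annotation 98 of the 5170 exon bases of MYCNOS (1.90%) are also exon bases of MYCN, and 665 (12.9%) are shared with MYCNUT, a noncoding gene on the plus strand. MYCNUT was listed at no more than 0.229 CPM in any library. DDX1 and NBAS share no exon base with a gene on the opposite strand in that annotation. How much of the MYCNOS signal came from MYCN reads was not tested.

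**Figure D2:**
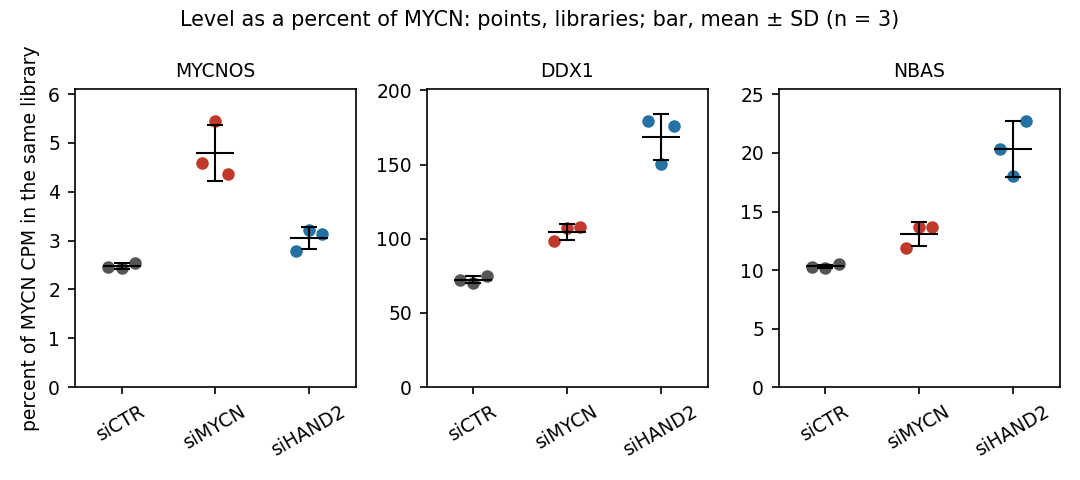
CPM of MYCNOS, DDX1 and NBAS as a percent of MYCN CPM in the same library (vertical axis, from 0), with points for libraries and bars for the mean ± SD of 3. In all 3 panels every knockdown library lies above every siCTR library, and for MYCNOS siMYCN is highest while for DDX1 and NBAS siHAND2 is highest. MYCN, the divisor, fell in both knockdowns, so a share can rise where the gene itself fell.

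DDX1, the helicase gene, had no called change in siMYCN and rose modestly in siHAND2. Its 3 siCTR libraries measured 1329.6, 1333 and 1338 CPM and its siMYCN libraries 1316, 1339 and 1388 CPM, and the 2 groups overlapped. In siHAND2 it measured 1611, 1460 and 1541 CPM, above every library of the other groups. The difference in log2(CPM + 1) between siMYCN and siCTR was 0.01 (limma, 95% interval -0.08 to 0.11, adjusted p = 0.832). This value turned to -0.04 after median-ratio rescaling, while quantile normalization, which also moved MYCN from -0.51 to -0.34, gave a called rise of 0.27. In siHAND2 DDX1 was higher than in siCTR by 0.20 (standard error 0.04, adjusted p = 0.00245), 1.15-fold on the CPM scale. Against siMYCN it was higher by 0.19 (adjusted p = 0.00437), a call that was lost after quantile normalization (0.02). Of all tested genes, 29.6% had a larger absolute difference between siHAND2 and siCTR.

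Per length, DDX1 was the most abundant of the neighbours. With CPM divided by the merged exon length of all annotated transcripts, it reached 132 ± 0.406 CPM per kb in siCTR (SD, n = 3 libraries), above 98.1% of the tested genes that have an exon length. On the same scale MYCN measured 669 ± 19.7, NBAS 9.02 ± 0.126 and MYCNOS 8.84 ± 0.0579 CPM per kb. AC010745.2 has no exon length in the annotation used. DDX1 ranked 1 of the 30 DEAD-box helicases listed here in each of the 3 groups. That list holds only genes with DDX names and not the whole family. The next in siCTR was DDX5, a splicing and transcription cofactor, at 77.3 CPM per kb, and the median of the other 29 was 13.3.

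In raw CPM, the order of DDX1 and MYCN changed between groups. In siCTR, DDX1 CPM was 72.4 ± 2.30% of MYCN CPM. In siMYCN it was 105 ± 5.45%, and in siHAND2 169 ± 15.6% (SD, n = 3 libraries each). In siMYCN, the mean of DDX1 itself was 101% of its siCTR mean while that of MYCN was 70.0%. In siHAND2, the mean of DDX1 was 115% of its siCTR mean while that of MYCN was 49.6%.

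NBAS encodes a subunit of the NRZ complex, which tethers vesicles returning from the Golgi to the endoplasmic reticulum, and has also been linked to nonsense-mediated mRNA decay. Its 3 control libraries gave 189.6, 193 and 187 CPM, followed by 159, 170 and 176 in siMYCN and 182, 174 and 199 in siHAND2. Every siMYCN library lay below every siCTR library, and siHAND2 overlapped siCTR. The siMYCN difference was -0.17 in log2(CPM + 1) (standard error 0.05, limma adjusted p = 0.0139), and the mean was 88.7% of that in siCTR. That call was lost with no intensity trend (adjusted p = 0.0558), without siCTR replicate 2 (-0.16, adjusted p = 0.0548) and without siMYCN replicate 1 (-0.13, adjusted p = 0.0777). In siHAND2 NBAS differed by -0.04 (95% interval -0.14 to 0.07, adjusted p = 0.632). Between the knockdowns NBAS differed by 0.14 (higher in siHAND2, adjusted p = 0.0561), just short of the threshold, and it was called under median-ratio rescaling (0.16, adjusted p = 0.0227) and quantile normalization (0.18, adjusted p = 0.0123).

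**Figure D3:**
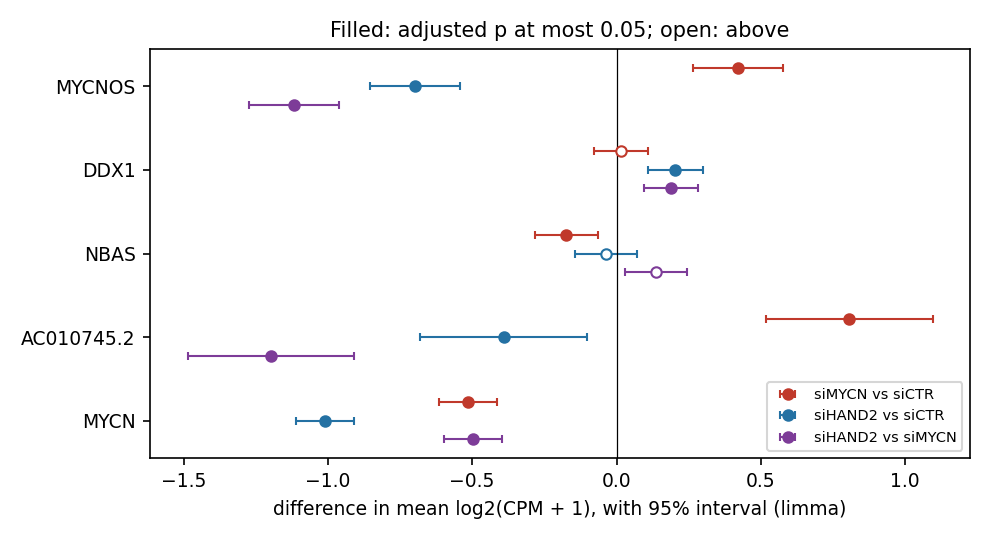
Differences in mean log2(CPM + 1) (horizontal axis) with 95% intervals from limma for the 4 neighbours and MYCN in the 3 comparisons, filled where the adjusted p is at most 0.05. MYCNOS and AC010745.2 lie to the right of 0 in siMYCN and to the left in siHAND2, while MYCN lies to the left in both.

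AC010745.2, the clone-named gene above MYCN, had the lowest level of the 4 and the largest ratios between group means in CPM. On the log2(CPM + 1) scale MYCNOS differed more in siHAND2 against siCTR (-0.70 against -0.39). Control libraries held 0.397, 0.786 and 0.570 CPM, siMYCN libraries 1.65, 2.07 and 1.58, and siHAND2 libraries 0.230, 0.199 and 0.177. From the depth of each library these correspond to 13, 21 and 12 reads, 41, 54 and 46 reads, and 7, 5 and 5 reads. The 3 groups did not overlap, and the order was that of MYCNOS: siMYCN on top and siHAND2 at the bottom. On the CPM scale the siMYCN mean was 3.02 times and the siHAND2 mean 0.346 times the siCTR mean. The siMYCN difference in log2(CPM + 1), which understates changes of such low genes, was 0.81 (standard error 0.14, limma adjusted p = 0.000244). AC010745.2 reached the filter only through its siMYCN libraries, so some difference from siMYCN was built into both comparisons with it. With no filter the adjusted p was 8.28e-05 over 25084 genes. Between siHAND2 and siMYCN the difference was -1.20 (adjusted p = 4.54e-06, and 1.38e-06 with no filter). The size of these differences depends on the pseudocount: with 0.1 and with 5 in place of 1, they were 1.48 and 0.28 for siMYCN against siCTR and -2.62 and -0.38 for siHAND2 against siMYCN, all called.

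The fall of AC010745.2 in siHAND2 was less firm. It was -0.39 on the same scale (standard error 0.14, limma adjusted p = 0.0393) and was lost with a pseudocount of 5 (-0.10, adjusted p = 0.108). With a pseudocount of 0.1 it was -1.14 (adjusted p = 0.00753), and with no filter the adjusted p was 0.0210. The call was also lost in 5 of 6 fits that left out 1 library, among them siCTR replicate 2 (-0.30, adjusted p = 0.175), siCTR replicate 3 (-0.39, adjusted p = 0.0754) and each siHAND2 library in turn (-0.41, -0.39 and -0.38 without replicates 1, 2 and 3). The 3 fits without a siMYCN library do not hold the gene, because it then misses the filter.

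The other 10 rows within 1 Mb of MYCN stayed under the filter, so their values are given with no test in that fit. GACAT3, a noncoding RNA gene 66.9 kb above MYCN, is named here after its values were seen. Its levels were 0.235, 0.449 and 0.237 CPM (siCTR), 1.09, 0.729 and 0.788 CPM (siMYCN) and 0.230, 0.159 and 0.248 CPM (siHAND2). All siMYCN libraries lay above all others, and siCTR and siHAND2 overlapped. With no filter, the siMYCN difference was 0.51 in log2(CPM + 1) (limma adjusted p = 0.00111) and the siHAND2 difference -0.11 (adjusted p = 0.517). The gene was named out of these 10 rows with its values known, so its p-values are no independent support. CYRIA, a protein-coding gene 602 kb above MYCN that encodes a RAC1-binding protein, was between 0.329 and 0.822 CPM. The remaining 8 rows did not exceed 0.240 CPM in any library.

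Beyond 1 Mb, 65 of 116 rows within 10 Mb of MYCN passed the filter. In siMYCN 25 of them rose (38.5%, against 24.5% of all tested genes) and 5 fell (7.69%, against 11.4%), with a median difference of 0.10 beside 0.06 over all tested genes. In siHAND2 21 rose (32.3%, against 18.1%) and 8 fell (12.3%, against 11.8%), with a median of 0.04 beside 0.04. Rescaling moved these counts: by median ratios and by quantiles, 17 and 17 rose and 10 and 11 fell in siMYCN, and 15 and 16 rose in siHAND2. The split over all tested genes moved as well. Higher calls were then 51.7% of 4793 and 49.3% of 4728 calls in siMYCN. In siHAND2 they were 48.3% of 4236 and 47.8% of 4147 calls. The tested genes numbered 14492 by median ratios and 14495 by quantiles. These are shares of calls and not of tested genes, so they cannot be set directly beside the shares given above. The siHAND2 rises numbered 13 without siHAND2 replicate 2 and 14 without siCTR replicate 2. The siMYCN falls numbered 3 without siCTR replicate 1 or 2 or siMYCN replicate 1 or 2, and 8 without siHAND2 replicate 3. TP53I3, a p53 target that encodes an oxidoreductase, had the largest called rise in siMYCN (20.4 ± 1.82 to 36.6 ± 2.26 CPM, 0.81, adjusted p = 6.48e-07). WDR35, a gene of ciliary transport, had the largest called fall in both knockdowns (from 47.8 ± 2.52 CPM to 32.9 ± 0.926 with siMYCN and 37.1 ± 2.19 with siHAND2, by -0.52 and -0.36). SILC1, a long noncoding RNA gene, had the largest rise in siHAND2, from 31.6 ± 1.10 to 58.0 ± 2.04 CPM (0.86, adjusted p = 2.02e-09).

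LRATD1, SMC6 and GEN1, the tested genes nearest to the 1 Mb window, showed no called change. LRATD1, the nearest below MYCN, measured 5.52 ± 0.643 CPM in siCTR and differed by -0.003 in siMYCN and -0.14 in siHAND2. SMC6, which encodes a subunit of a chromosome-maintenance complex and lies 1.72 Mb above MYCN, measured 65.7 ± 1.61 CPM and differed by 0.10 and 0.05. GEN1, a nuclease gene of DNA repair 1.81 Mb above, measured 47.6 ± 3.23 CPM and differed by 0.02 and 0.18 (adjusted p = 0.822 and 0.0593).

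**Figure D4:**
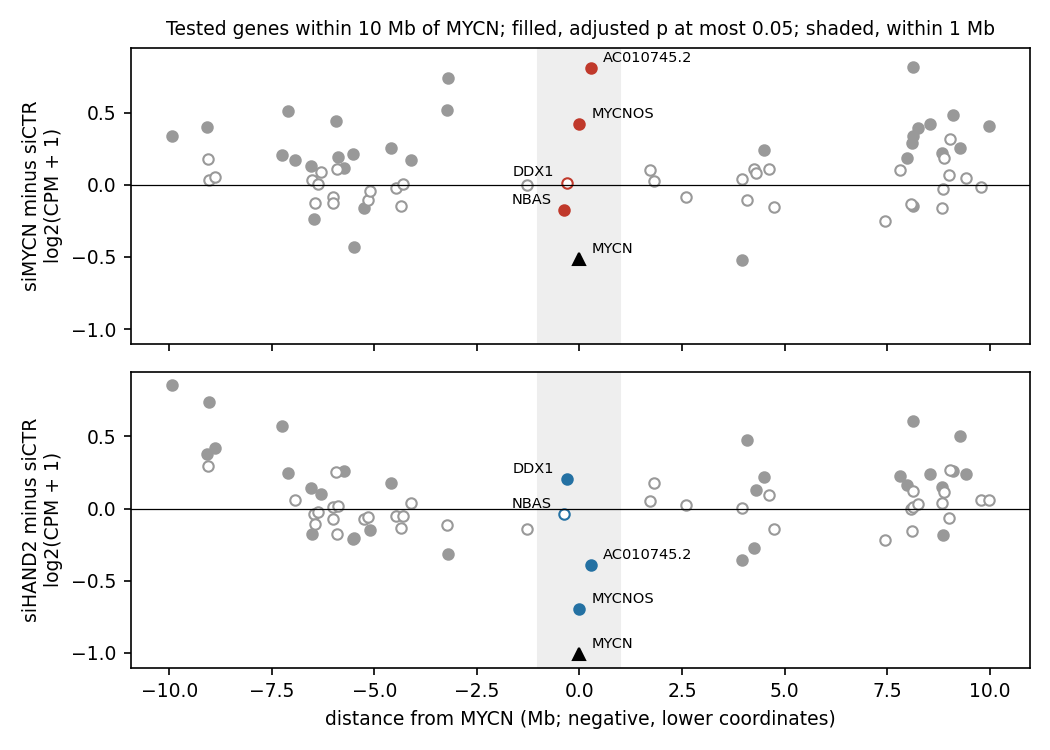
Differences in log2(CPM + 1) from siCTR (vertical axis) against distance from MYCN in Mb (horizontal axis) for the tested genes within 10 Mb, filled where the adjusted p is at most 0.05 with the 4 neighbours coloured and MYCN as a black triangle. Within the shaded 1 Mb window, DDX1 and NBAS, below MYCN, lie nearer to 0 than MYCNOS and AC010745.2, which lie above 0 in siMYCN and below 0 in siHAND2.

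Genes that work with DDX1 were set beside it. Of 6 genes of the tRNA ligase complex and its helpers, 1 fell in siMYCN (16.7%, against 11.4% of all tested genes), or 2 under either rescaling. In siHAND2 against siCTR, where DDX1 rose, limma called 0 (29.9% of all tested genes were called), and 0 of 6 had an unadjusted p under 0.05. The called gene was FAM98A, a subunit of the complex, which fell from 38.6 ± 1.14 to 33.0 ± 0.966 CPM in siMYCN (-0.22, adjusted p = 0.00466). Among 29 other DEAD-box helicases, 3 rose and 6 fell in siMYCN (10.3% and 20.7%, against 24.5% and 11.4% of all tested genes), and 11 fell after quantile normalization. The split over all tested genes moved too: higher calls in siMYCN were 68.3% of 5209 on the deposited scale. They were 51.7% of 4793 by median ratios and 49.3% of 4728 by quantiles. In siHAND2 5 rose and 5 fell (17.2% each, against 18.1% and 11.8%). The rises in siHAND2 numbered 2 with no intensity trend, 3 after median-ratio rescaling and 3 without any 1 of the siCTR libraries or without siHAND2 replicate 1. DDX5 had the largest rise in both knockdowns (0.23 and 0.27, from 719 ± 24.1 CPM to 844 ± 34.5 and 867 ± 55.3). The largest fall in siMYCN was that of DDX10, a helicase of ribosome assembly, from 68.3 ± 0.667 to 49.6 ± 0.849 CPM (-0.45, adjusted p = 1.30e-06). In siHAND2 it was that of DDX21, a nucleolar helicase, from 374 ± 9.08 to 295 ± 11.5 CPM (-0.35, adjusted p = 1.05e-05). The median difference of the 29 was -0.05 in siMYCN and 0.002 in siHAND2.

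The partners of NBAS were treated in the same way. Of 8 genes of the NRZ tether and its SNARE partners, 1 rose and 1 fell in each knockdown against siCTR. Each is 12.5% of the list, against 24.5% higher and 11.4% lower over all tested genes in siMYCN and 18.1% and 11.8% in siHAND2. Under either rescaling 0 rose and 3 fell in siMYCN, and with the replicate block 2 rose. Rescaling also lowered the share of higher calls over all tested genes, from 68.3% of calls to 51.7% (median ratios) and 49.3% (quantiles). SCFD2, a Sec1 family gene, fell from 32.6 ± 1.35 to 22.9 ± 0.697 CPM in siMYCN (-0.49, adjusted p = 6.13e-06). Its siHAND2 level was 28.2 ± 1.01 CPM (-0.20, adjusted p = 0.0128), a call that was lost without siCTR replicate 1, siCTR replicate 2 or siHAND2 replicate 1 (-0.18, -0.19 and -0.17). SCFD1, another Sec1 family gene, rose from 39.5 ± 0.836 to 44.2 ± 2.77 CPM in siMYCN (0.15), a call lost under both rescalings (0.10 each) and in 5 of 6 fits without 1 of the libraries compared (0.12 to 0.16). In siHAND2 it reached 44.6 ± 1.41 CPM (0.17, adjusted p = 0.0265), a call also lost under both rescalings (0.13 and 0.14) and in 4 of 6 such fits (0.15 to 0.18). Of 10 genes of nonsense-mediated decay, 3 rose and 0 fell in siMYCN (30% higher, against 24.5% of all tested genes), and 1 rose and 0 fell in siHAND2 (10.0%, against 18.1%). SMG9, part of the complex that controls the decay kinase SMG1, had the largest rise in siMYCN, from 19.4 ± 0.953 to 24.2 ± 1.07 CPM (0.30, adjusted p = 0.00234). The siMYCN rises in that list numbered 1 under either rescaling or without siMYCN replicate 1, 5 with the replicate block, and 6 without siHAND2 replicate 3 or with only the groups compared. The siHAND2 rise was that of UPF2, a core decay factor, from 49.98 ± 1.62 to 54.9 ± 1.04 CPM (0.13, adjusted p = 0.0475). It was lost in 13 of 18 alternatives, among them both rescalings (0.10 each) and each fit that left out a siCTR or siHAND2 library (0.11 to 0.15). The number of siHAND2 rises in the list ran from 0 to 3 over the alternatives, with 2 under the replicate block.

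Across the 9 libraries the 4 neighbours did not share a pattern. The Pearson correlation of log2(CPM + 1) was 0.918 between MYCNOS and AC010745.2, -0.883 between MYCNOS and DDX1, and 0.309 between DDX1 and NBAS. With MYCN it was 0.598 for MYCNOS, -0.846 for DDX1, 0.299 for AC010745.2 and 0.115 for NBAS. These are descriptions over 9 libraries of 3 groups. Of the 11200 candidates averaging 5 CPM or more, the patterns most like that of MYCNOS were those of CIAPIN1, an iron-sulfur assembly gene (0.984), CDKAL1, a tRNA-modifying enzyme gene (0.981), and SVIL, which encodes an actin-binding protein (0.981). For DDX1 these were YPEL2 (0.966), SH3KBP1 (0.965) and TENM3 (0.963). For NBAS these were TUBD1, a tubulin gene (0.975), CSE1L, a nuclear export factor gene (0.970), and the helicase gene DDX50 (0.966). For AC010745.2 they were ST3GAL3 (0.980), CHPF (0.980) and RAPGEF4 (0.979), the last rising from 11.2 ± 0.316 CPM in siCTR to 17.8 ± 0.951 in siMYCN and falling to 8.76 ± 0.184 in siHAND2. CHPF and RAPGEF4 are on chromosome 2, outside the 10 Mb window, and the other 10 genes named here are on other chromosomes.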

How the data were processed

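The authors deposited 1 table of CPM values (reads per gene scaled to the same total in each library, plus a constant of 0.0001) with 1 column per library. The submitters' processing notes name STAR 2.5.1, Partek and the build hg19 (GRCh37), but 91.4% of 18215 gene starts lay within 5000 bases of RefSeq GRCh38.p14 and 5.62% of 18633 within 5000 bases of a GRCh37 annotation, so coordinates are given as GRCh38. Counting tool, strand use and annotation are not given in the sources used here. Every value column was matched to a sample by name.

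Depth came from the smallest step between low CPM values. Since 80.0% to 81.4% of the low values were whole multiples of that step (within 0.02 of a step), and 95% would be needed, no count test was run. Tests used log2(CPM + 1) of genes at 1 CPM or more in 3 or more libraries. They were run with limma 3.58.1 under R 4.3.3, with an intensity trend in the empirical Bayes step, two-sided, with a threshold of 0.05 on the Benjamini-Hochberg adjusted p. The fit was tested on simulated data. Exon lengths came from GENCODE v44 mapped to GRCh37, by symbol, for 90.2% of tested genes. Named genes are the 4 neighbours, the 2 siRNA targets, for each list and comparison the largest called rise and fall among genes averaging 5 CPM or more whose groups do not overlap, and the 3 genes most correlated with each neighbour. For siHAND2 against siMYCN the list rule picked TRIB2 (-1.05) and RNF144A-AS1 (0.70) among rows 1 to 10 Mb from MYCN. In the other lists it picked the rises of FAM98A (0.17), DDX10 (0.19) and SCFD2 (0.29). The FAM98A call was lost with only the 2 groups compared. It was also lost without siMYCN replicate 3, siHAND2 replicate 1 or siHAND2 replicate 2 (0.15 in each). GACAT3 and CYRIA, from the rows within 1 Mb of MYCN, were added after their values were seen. LRATD1, SMC6 and GEN1 were added by position, also after their values were seen. The neighbours and lists were chosen with earlier results of these data known.

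Replicates with the same number deviated together in all 6 pairs with siCTR (correlation over 0.1 across genes). Pairs with unlike numbers reached 0.179 with siCTR (siCTR replicate 2 with siHAND2 replicate 1) and 0.219 between the knockdowns. The labels do not state a pairing. The main fits and the permutation test used none, and the replicate number entered only as a block in an alternative fit. Between siMYCN and siHAND2, 2 of 3 pairs with the same number had a correlation over 0.1. The block changed no call among the neighbours against siCTR.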

Additional observations from a re-analysis of the deposited data

How the results depend on the processing

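Each result was recomputed with each library left out, with the replicate number as a block, without the intensity trend, with only the 2 groups compared, with other scalings (median ratio, quantile), other filters (none, 5 CPM) and other pseudocounts (0.1, 5). The same settings for MYCN, HAND2 and the genes of the lists were added after seeing the data. Among refits for the 4 neighbours, 184 kept direction and side of the threshold, 10 fell short of it, 6 newly passed it and 3 changed sign.

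All alternatives kept the calls of MYCNOS in the 3 comparisons (0.35 to 0.49, -0.78 to -0.63 and -1.20 to -1.02). AC010745.2 in siMYCN was called in the 14 alternatives that held it. Since it reached the filter only through the siMYCN libraries, those calls are not independent of its high level there. DDX1 in siMYCN went to -0.042 after median-ratio rescaling, to 0.27 (called) after quantile normalization, and from -0.0067 to 0.031 with a library left out. Its siHAND2 minus siMYCN difference fell short after quantile normalization (0.025). NBAS in siMYCN was not called with no intensity trend (-0.17) and ran from -0.21 to -0.13 with a library left out; in siHAND2 it ran from -0.089 to 0.0064. NBAS in siHAND2 against siMYCN was called after median-ratio rescaling (0.16), quantile normalization (0.18) and with the replicate block (0.14), and ran from 0.084 to 0.18 with a library left out. AC010745.2 in siHAND2 was -0.10 with a pseudocount of 5 and -0.48 to -0.30 with a library left out. The cause of these shifts was not tested. A fit with a library left out also has fewer libraries, and the effect of that was not separated. AC010745.2 could not be fitted with a filter of 5 CPM, without a siMYCN library, or in siHAND2 against siCTR alone. The replicate block changed no other call among the neighbours.

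Counts in small lists moved most: helicases that fell in siMYCN numbered 6 and ranged between 5 and 11, decay genes that rose numbered 3 (1 to 6), and genes 1 to 10 Mb from MYCN that fell numbered 5 (3 to 11). Depth limits AC010745.2 and GACAT3, with 5 to 54 and 4 to 27 reads per library.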
